A study of Homo sapiens with 84 samples.

Results

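The response of Kyse30 and FaDu cells to 6 h of EGF was compared as a difference of differences, that is, the change from untreated control to 9 nM EGF in FaDu minus the same change in Kyse30 cells. Kyse30 is a line from an esophageal squamous cell carcinoma and FaDu a line from a carcinoma of the hypopharynx. The comparison used 11 of the 84 libraries in the series: 4 of Kyse30 with 9 nM EGF for 6 h, 3 of untreated Kyse30 at 6 h, and replicates 3 and 4 of FaDu in each of both conditions. All cells, controls included, had been deprived of serum for 24 h before treatment and stayed without serum during it. Each line is a single cultured population, so a difference between them describes these 2 lines and not their tissues of origin. The labels do not say whether replicates came from separate cultures, so that p-values measure only the spread between these samples. Of 58395 genes in the files, 14688 had enough counts to be tested.

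EGF binds EGFR, a receptor tyrosine kinase of epithelial cells. The activated receptor signals through RAS, RAF, MEK, and ERK and through PI3K and AKT. Within minutes ERK switches on immediate early transcription factors such as EGR1 and the AP-1 family, which in turn drive later genes. These include further EGFR ligands (AREG, EREG, HBEGF), dual-specificity phosphatases and Sprouty proteins that dampen ERK, and genes of adhesion, proteolysis, and motility. In squamous carcinoma cells strong EGFR signalling can bring on epithelial-to-mesenchymal transition (EMT), in which cell contacts are loosened and migration increases.

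Reads came from the 3′ end of transcripts, and levels are given as CPM, counts scaled to a common library total with TMM normalisation, which can be compared between libraries without regard to transcript length. Totals on genes ran from 2769098 to 9331549 counts in the 7 Kyse30 libraries and from 8317178 to 11095198 in the 4 FaDu libraries. The smallest amount a library was taken to show, 3 counts, corresponded to between 0.27 and 1.08 CPM. Use of molecular identifiers is not given in the sources used here, so such floors and all counting intervals cover counting error only. Squamous markers were present in both lines, but KRT5 at 0.812 to 8.64 and KRT17 at 3.48 to 15.3 CPM of the library total were low in Kyse30, against 121 to 257 and 614 to 3200 in FaDu. PERP at 496 to 688 and CDH1 at 100 to 246 CPM were higher in Kyse30 than in FaDu, with 243 to 334 and 34.6 to 81.9. SFN overlapped at 604 to 2350 against 222 to 969. Leukocyte markers summed to at most 1.62 CPM, with CD3E at 0 throughout. Fibroblast markers summed to 9.82 to 43.8, with COL1A1 and, in Kyse30, COL1A2 at the highest levels and LUM at 0. Endothelial markers summed to 2.89 to 9.01 CPM in FaDu and 0.361 to 3.19 in Kyse30, with CDH5 at 2.77 to 8.11 in FaDu. Their part in the results was not tested.

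FaDu replicates 1 and 2 stood apart from replicates 3 and 4. Spearman correlations of libraries over 14846 genes were 0.957 to 0.977 within replicates 3 and 4, 0.802 to 0.884 within 1 and 2, and 0.774 to 0.835 between both pairs, while FaDu 3 and 4 against Kyse30 gave 0.837 to 0.863. For untreated FaDu 1 and 2 the median correlation over 14688 genes was 0.857 and 0.83 with Kyse30. With FaDu 3 and 4 it was 0.842 and 0.824. For EGF-treated FaDu 1 and 2 it was 0.807 and 0.812 with Kyse30 and 0.81 and 0.809 with FaDu 3 and 4. The cause was not tested. HBEGF, an EGFR ligand gene that rose with EGF in both lines in the comparison below, was at 60.0 and 6.84 CPM of the library total in the untreated FaDu libraries 1 and 2 and at 3.05 and 2.26 in the corresponding EGF libraries. With all 4 FaDu replicates in the fit, 0 of 14846 genes differed in response between lines by edgeR (829 at an unadjusted p under 0.05), and 0 were called in either line. With FaDu 1 and 2 in place of 3 and 4, a choice added after these values were seen, 708 genes were called. Of these, 6 were among the 22 genes described here. Only 6 of the 22 differences, called or not, had the same sign as with FaDu 3 and 4. The FaDu response was in the same direction for 4 of the 22. All results below therefore hold for FaDu replicates 3 and 4, and not for replicates 1 and 2.

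DEGs had an adjusted p no higher than 0.05 together with a log2FC beyond 0.5 in either direction. EGF changed 733 genes in Kyse30 (470 higher and 263 lower, 4.99% of genes tested) and 247 in FaDu (205 higher and 42 lower, 1.68%). In both lines 114 genes changed in the same direction (0.776%), 100 of them higher (0.681%) and 14 lower (0.0953%), which was 46.2% of the FaDu list and 15.6% of the Kyse30 list. Of the 114 genes, 109 had no called difference (0.742%), 95 of them higher (0.647%). Only 1 gene, TUBB3, changed in opposite directions (0.00681%). The response itself differed between lines for 22 genes (0.15%), with 18 higher in FaDu (0.123%) and 4 lower (0.0272%), and 877 genes had an unadjusted p under 0.05. Of the 22 genes, 11 were DEGs in FaDu and not in Kyse30, 5 were DEGs in Kyse30 and not in FaDu (KRT6A, KAZN, DDIT4, EGR1, and KIAA1217), and 5 rose in both lines but more in FaDu (EREG, F3, THBS1, PRSS22, and PCDH7). A further 121 genes passed the threshold only in FaDu and 613 only in Kyse30, with no difference called, and these are not shown to differ between the lines. The median standard error of a log2FC was 0.426 in FaDu with 2 against 2 libraries, 0.338 in Kyse30, and 0.562 for the difference. In bulk samples fewer cells of a kind and less RNA per cell cannot be told apart.

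Calls depended on individual libraries. The count of 22 fell to 4 without FaDu EGF replicate 4 or FaDu control replicate 3, to 10 without Kyse30 control replicate 4, to 12 without Kyse30 control replicate 3, and to 11 and 14 without Kyse30 EGF replicates 2 and 3. FaDu DEGs numbered 69 without FaDu control replicate 3, 110 without FaDu EGF replicate 4, and 142 without FaDu control replicate 4, and Kyse30 DEGs numbered 296 without Kyse30 control replicate 4, 390 without Kyse30 EGF replicate 2, and 427 without Kyse30 EGF replicate 3. The shared DEGs fell from 114 to 46, 67, and 70 without FaDu control replicate 3, FaDu EGF replicate 4, and FaDu control replicate 4, and to 74 without Kyse30 control replicate 4. All 22 differences kept their sign in each of the 11 fits that left out 1 library, while FGD6 and KRT6A were the 2 genes called in all of them. In the 4 of these fits that left out a FaDu library, 1 FaDu group held a single library, whose spread was assumed to be like that of the other groups. CLDN1 lost its call without FaDu control replicate 3, PDLIM5 without FaDu control replicate 4, and PRSS22, DDIT4, and LIMA1 without FaDu EGF replicate 4 or FaDu control replicate 3. TAGLN and NEDD4L lost it without either of these or FaDu control replicate 4, and THBS1 without either of these or Kyse30 control replicate 3. The remaining 12 genes were called in 5 or fewer of the 11 fits, and TUBB3 was no longer called in opposite directions in 8 of them.

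**Figure D1:**
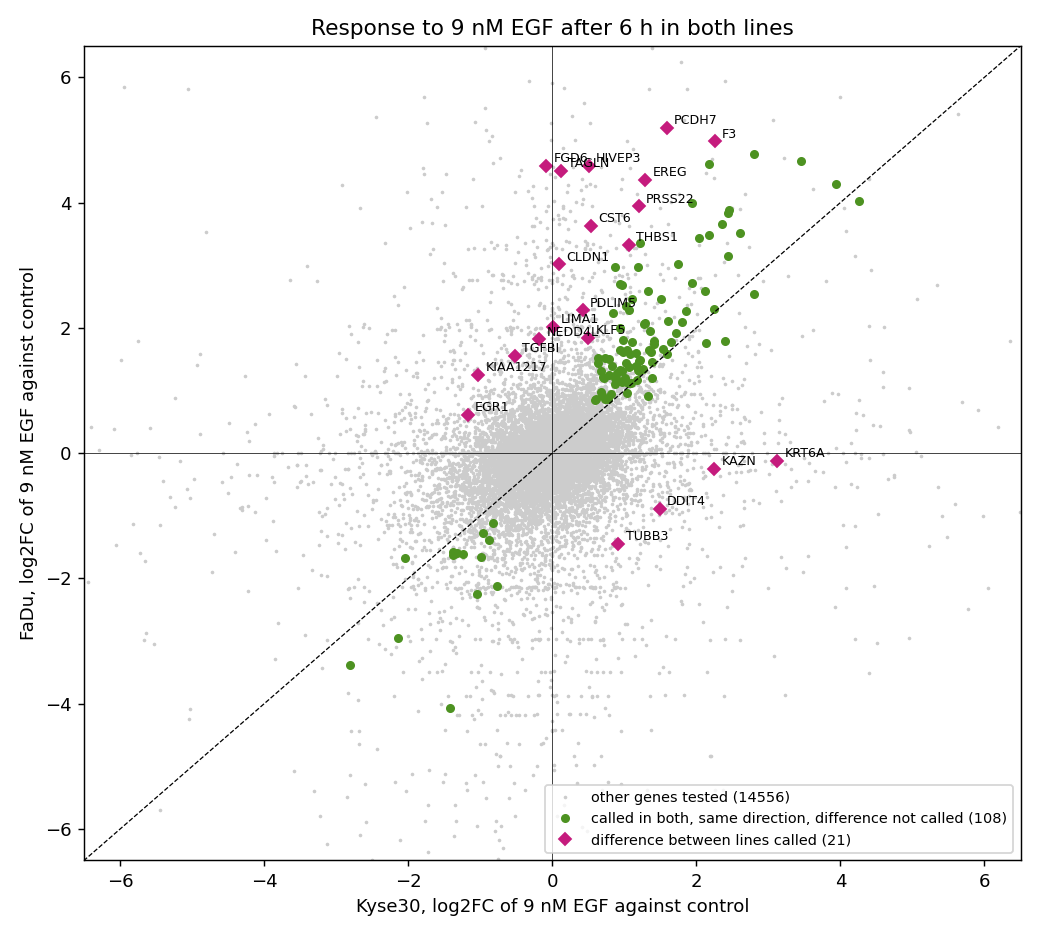
Each point is 1 gene, with the log2FC of 9 nM EGF against control at 6 h in Kyse30 on the x axis and in FaDu on the y axis, and the dashed line marks equal responses. The axes end at 6.5, and 17 genes lie outside them. Of the 22 genes whose response differed between lines, 21 are shown (diamonds) and lie off the line, 17 above and 4 below it, and the shared DEGs with no difference called (circles) lie in the upper right and lower left.

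The genes that FaDu raised more are described by what their products do, an order made after the calls were seen and not a tested theme. Epiregulin (EREG, GENCODE 29 gene on GRCh38 at chr4:74365143-74388751), a ligand of EGFR and ERBB4, stood at 0.344 and 2.23 CPM in FaDu controls and 17 and 36.6 CPM with EGF, and at 48.3, 44.8, and 60.0 CPM in Kyse30 controls and 141, 131, 106, and 120.4 CPM with EGF. EGF libraries lay above controls in both lines, and the highest FaDu EGF library was below the lowest Kyse30 control. The log2FC was 4.37 ± 0.49 (SE) in FaDu and 1.29 ± 0.29 in Kyse30, a difference of 3.08 ± 0.56 (adjusted p = 0.0268), called in 5 of 11 leave-one-out fits. Libraries overlapped between EGF and control in neither line for this gene, which held for 41.6% of all genes in FaDu, with 2 against 2 libraries, and 15.6% in Kyse30.

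Tissue factor (F3, chr1:94529225-94541800, minus strand), the receptor that starts blood coagulation, was at 10.1 and 11.8 CPM in FaDu controls and 208 and 481 CPM with EGF, and at 102, 66.2, and 66.3 CPM in Kyse30 controls and 648, 336, 312, and 204 CPM with EGF. FaDu thus reached the range of EGF-treated Kyse30 from a control level well below that of Kyse30. It rose by 4.98 ± 0.49 in FaDu and 2.26 ± 0.33 in Kyse30 on the log2 scale, and the difference of 2.72 ± 0.53 had an adjusted p of 0.0436, with 3 of 11 leave-one-out fits called. Its RefSeq promoter (GRCh38.p14, chr1:94541710-94542009, minus strand, 250 bases before to 50 after the start) is shown because it was the only promoter found for the 18 genes to hold the AP-1 motif TGANTCA, in capitals. The motif reads the same on both strands and overlapped no other motif searched. It occurred from -223 and -210 relative to the start, and 7.76% of the 27305 promoters in the table, or 4.75% of the 10625 found for genes tested, held 1 or more.
F3: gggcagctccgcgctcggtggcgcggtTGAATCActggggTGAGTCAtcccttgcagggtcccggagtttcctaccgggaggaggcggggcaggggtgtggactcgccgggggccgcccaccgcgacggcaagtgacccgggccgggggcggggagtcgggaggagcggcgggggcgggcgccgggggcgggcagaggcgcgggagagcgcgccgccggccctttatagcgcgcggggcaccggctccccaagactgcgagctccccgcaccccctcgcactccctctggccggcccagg

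Thrombospondin 1 (THBS1), a secreted matrix glycoprotein, was at 20.3 and 30.3 CPM in FaDu controls and 249 and 257 CPM with EGF, and at 75.4, 69.2, and 48.4 CPM in Kyse30 controls and 141, 135, 182, and 81 CPM with EGF. Its log2FC of 3.32 in FaDu exceeded that of 1.06 in Kyse30 by 2.26 ± 0.39 (adjusted p = 0.0192). PRSS22, a serine protease of airway epithelium, held 35.6 and 58.3 CPM in FaDu controls and 494 and 946 CPM with EGF, and 66.9, 77.1, and 63.8 CPM in Kyse30 controls and 135, 154, 251, and 97.7 CPM with EGF. FaDu EGF libraries lay above every Kyse30 library, as they also did for THBS1, with a difference in response of 2.74 ± 0.45 (adjusted p = 0.0124). CST6, the protease inhibitor cystatin E/M, went from 1.15 and 4.23 CPM to 35.2 and 31.2 CPM in FaDu, and was at 58.2, 125, and 96.5 CPM in Kyse30 controls and 71.4, 173, 139, and 154 CPM with EGF, where the ranges overlapped. The difference for CST6 was 3.09 ± 0.57 (adjusted p = 0.0273). TGFBI, a matrix protein induced by TGF-beta, was at 2.64 and 2 CPM in FaDu controls and 5.06 and 8.67 CPM with EGF, against 111, 155, and 126 CPM in Kyse30 controls and 85, 90.3, 87.8, and 100.3 CPM with EGF. Both FaDu EGF libraries exceeded both controls, and all Kyse30 EGF libraries lay below the controls, with log2FC 1.55 in FaDu, -0.52 in Kyse30 (adjusted p = 0.141), and a difference of 2.07 ± 0.38 (adjusted p = 0.0292).

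Claudin 1 (CLDN1, chr3:190305701-190322475, minus strand), a tight junction protein, was at 8.82 and 13.2 CPM in FaDu controls and 59.5 and 118 CPM with EGF, and at 319, 275, and 386 CPM in Kyse30 controls and 484, 329.6, 313, and 269.8 CPM with EGF. EGF and control libraries overlapped in Kyse30 and not in FaDu, and all FaDu libraries were below all Kyse30 libraries. The log2FC was 3.01 ± 0.34 in FaDu and 0.09 ± 0.23 in Kyse30, with a difference of 2.92 ± 0.40 (adjusted p = 0.00291). Its call was kept in 10 of 11 leave-one-out fits and missed only without FaDu control replicate 3 (adjusted p = 0.0525). The protocadherin PCDH7 (chr4:30720415-31146805) stood at 0.459 and 0.705 CPM in FaDu controls and 25.7 and 18.1 CPM with EGF, and at 5.56, 12.2, and 20.1 CPM in Kyse30 controls and 29.7, 36.1, 34, and 51.8 CPM with EGF. FaDu EGF libraries lay below every Kyse30 EGF library. FaDu controls together held 10 counts and FaDu EGF libraries 441, a ratio of 38.2 with a counting interval of 20.6 to 80.2, and the difference in response was 3.61 ± 0.69 (adjusted p = 0.0352).

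Transgelin (TAGLN), an actin-binding protein of smooth muscle and mesenchymal cells, was at 1.38 and 1.41 CPM in FaDu controls and 29.1 and 34.8 CPM with EGF. Kyse30 had 7.64, 3.01, and 4.82 CPM in controls and 8.88, 3.17, 6.46, and 4.37 CPM with EGF, so that FaDu EGF libraries were above every Kyse30 library while the Kyse30 groups overlapped. The difference was 4.38 ± 0.71 (adjusted p = 0.0124), but TAGLN overlaps PCSK7 on the opposite strand. PCSK7 had more counts on average, 143.8 against 79.5 for TAGLN. As the strand setting of the counting is not given in the sources used here, reads of both genes cannot be told apart. LIMA1, a LIM protein that bundles actin filaments, was at 102 and 146 CPM in FaDu controls and 390.0 and 612 CPM with EGF, and at 558, 422, and 425 CPM in Kyse30 controls and 552, 449, 404, and 483 CPM with EGF. Its level rose in FaDu by 2.01 ± 0.25 on the log2 scale, to levels around those of Kyse30, where the log2FC was 0.01 ± 0.19 (difference 2.01 ± 0.31, adjusted p = 0.0114). PDLIM5, a scaffold protein of the actin cytoskeleton, was at 62.5 and 41.5 CPM in FaDu controls and 274 and 231 CPM with EGF, and at 242, 296, and 189 CPM in Kyse30 controls and 303, 293, 336, and 367 CPM with EGF. FaDu EGF libraries lay within the range of Kyse30 controls, with a difference in response of 1.86 ± 0.30 (adjusted p = 0.0124). LIMA1, PDLIM5, and NEDD4L fell outside the naming rule and were named after their values were seen.

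FGD6 (chr12:95076749-95217482, minus strand), which activates the small GTPase CDC42, was called in all leave-one-out fits. It was at 0.229 and 0.235 CPM in FaDu controls and 6.19 and 5.74 CPM with EGF, and at 30.8, 27.2, and 23.4 CPM in Kyse30 controls and 26.6, 20.2, 31.7, and 23.8 CPM with EGF. FaDu controls together held 4 counts against 119 with EGF, a ratio of 25.8 with a counting interval of 9.8 to 96.1, and even the EGF level of FaDu stayed below all Kyse30 libraries. The difference was 4.67 ± 0.60 (adjusted p = 0.00231), and between 4.58 and 4.80 in the leave-one-out fits, with an adjusted p of at most 0.0362.

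NEDD4L, a ubiquitin ligase of ion channels and receptors, was at 8.14 and 6.47 CPM in FaDu controls and 24.8 and 26.7 CPM with EGF, and at 75.8, 63.2, and 62.2 CPM in Kyse30 controls and 67.3, 45.1, 61.4, and 63 CPM with EGF, where the ranges overlapped. The response differed by 1.996 ± 0.35 (adjusted p = 0.021). KIAA1217, a member of the integrin and hemidesmosome list, was at 8.94 and 12.3 CPM in FaDu controls and 29.2 and 21.2 CPM with EGF, and at 38.4, 26.4, and 39.7 CPM in Kyse30 controls and 20.8, 12.5, 15.3, and 19.9 CPM with EGF. Libraries did not overlap in either line, with log2FC 1.25 ± 0.36 in FaDu (adjusted p = 0.107) and -1.03 ± 0.27 in Kyse30 (adjusted p = 0.0323), so the fall in Kyse30 passed the threshold and the FaDu value did not. The difference of 2.27 ± 0.45 was at an adjusted p of 0.045 and was called in 2 of 11 leave-one-out fits, the fewest of the 22.

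Among transcription factors, EGR1 (chr5:138465490-138469315), an immediate early zinc finger factor, was lower with EGF in Kyse30 at 6 h. It stood at 652, 485, and 591 CPM in Kyse30 controls and 268, 297, 153, and 303 CPM with EGF, and at 251 and 359 CPM in FaDu controls and 394 and 535 CPM with EGF. All Kyse30 EGF libraries lay below the controls, while FaDu EGF libraries lay above theirs. EGR1 fell by 1.17 ± 0.21 on the log2 scale in Kyse30 (adjusted p = 0.00299), had a log2FC of 0.61 ± 0.28 in FaDu (adjusted p = 0.486), and differed by 1.78 ± 0.35 (adjusted p = 0.045, called in 3 of 11 leave-one-out fits). The promoter of EGR1 (RefSeq, GRCh38.p14, chr5:138465229-138465528, plus strand) is shown because serum response factor binds CArG boxes in genes switched on by ERK. A CArG box, CC followed by 6 A or T and GG, stood from -105 and -83, in capitals, and 1.29% of all promoters in the table, or 1.07% of those of genes tested, held 1 or more.
EGR1: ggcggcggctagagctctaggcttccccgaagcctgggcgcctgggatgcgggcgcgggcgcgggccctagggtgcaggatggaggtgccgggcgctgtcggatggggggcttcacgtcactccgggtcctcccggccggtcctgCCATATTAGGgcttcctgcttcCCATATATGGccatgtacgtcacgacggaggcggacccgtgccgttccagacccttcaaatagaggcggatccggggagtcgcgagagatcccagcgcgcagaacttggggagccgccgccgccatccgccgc

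KLF5, a Krüppel-like factor of proliferating epithelium, was at 50.7 and 58.1 CPM in FaDu controls and 191 and 198 CPM with EGF, and at 154, 149, and 192 CPM in Kyse30 controls and 235, 227, 236, and 237 CPM with EGF. EGF libraries were above controls in both lines, with a log2FC of 1.84 ± 0.21 in FaDu and 0.50 ± 0.15 in Kyse30 (adjusted p = 0.0713) and a difference of 1.34 ± 0.25 (adjusted p = 0.0352), the smallest of the 22. HIVEP3, a large zinc finger protein, was at 0 and 0.235 CPM in FaDu controls and 3.75 and 2.6 CPM with EGF, and at 18.2, 15.4, and 16 CPM in Kyse30 controls and 24.6, 24.8, 21.1, and 23.3 CPM with EGF. FaDu controls held 2 counts in all against 64 with EGF, a ratio of 27.7 with a counting interval of 7.36 to 234. The difference of 4.08 ± 0.79 (adjusted p = 0.0399) ranged from 3.16 to 7.03 over the leave-one-out fits. With so few counts, such fitted values depend on the default prior count of the fit.

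**Figure D2:**
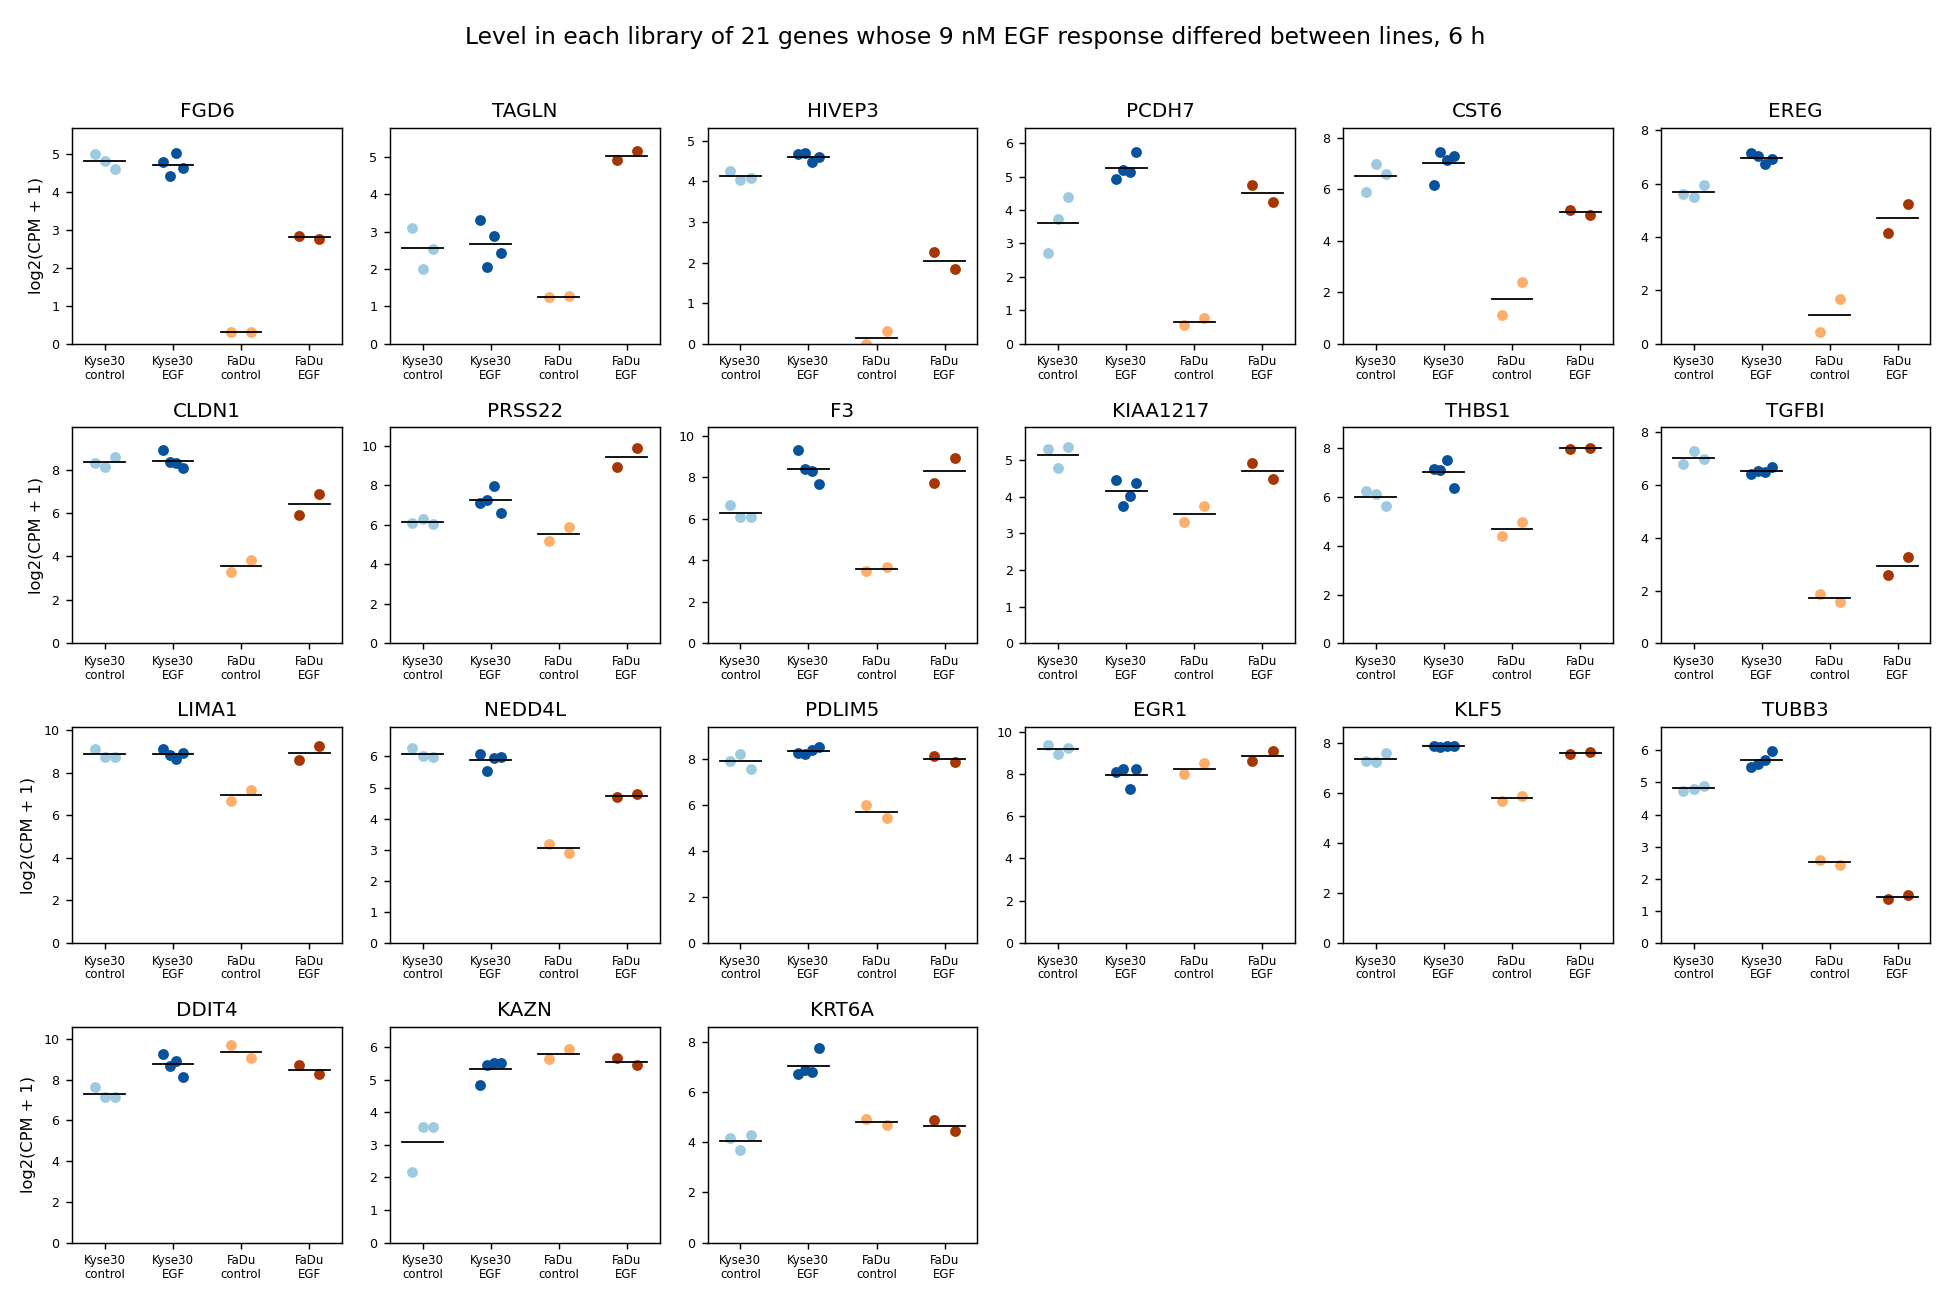
Each of the 21 panels gives 1 gene whose response differed, with log2(CPM + 1) on the y axis, 1 point per library in the 4 groups on the x axis, and a line at the group mean. In the 17 genes shown with the larger response in FaDu the FaDu controls are below every Kyse30 control, whereas in KRT6A, KAZN, and DDIT4 they are above. The share of all genes with either order is not given here.

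The 4 genes with the lower response in FaDu all rose in Kyse30. In FaDu 3 of them were not called, and TUBB3 was called lower. Keratin 6A (KRT6A, chr12:52487174-52493257, minus strand), a keratin of activated and wounded squamous epithelium, was at 16.9, 11.9, and 18.3 CPM in Kyse30 controls and 104, 117, 108, and 214 CPM with EGF, and at 29 and 24.6 CPM in FaDu controls and 28.4 and 20.7 CPM with EGF. Kyse30 libraries were separated by EGF with a wide margin, and FaDu libraries were below every Kyse30 EGF library in both conditions. The log2FC was 3.12 ± 0.28 in Kyse30 and -0.12 ± 0.33 in FaDu, and the difference of -3.25 ± 0.43 (adjusted p = 0.00231) was called in 11 of 11 leave-one-out fits. KRT6A shares near-identical sequence with KRT6B and KRT6C. Reads that mapped to several places were tallied apart from the genes, so some KRT6A reads may be uncounted and its level is uncertain.

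KAZN, which encodes kazrin, a protein of the cornified envelope and desmosomes, was at 3.48, 10.6, and 10.8 CPM in Kyse30 controls and 27.3, 42.6, 44.8, and 44.2 CPM with EGF, and at 48.7 and 60.3 CPM in FaDu controls and 49.1 and 42.5 CPM with EGF. EGF thus brought Kyse30 close to a level that FaDu held in both conditions, with a difference in response of -2.50 ± 0.49 (adjusted p = 0.0406). DDIT4, an inhibitor of mTORC1 induced by hypoxia and ATF4, was at 199, 140.5, and 139 CPM in Kyse30 controls and 617, 412, 487, and 275 CPM with EGF, and at 820.5 and 530.4 CPM in FaDu controls and 414 and 313 CPM with EGF. It rose by 1.49 ± 0.24 in Kyse30 and had a log2FC of -0.89 ± 0.30 in FaDu (adjusted p = 0.22), with both FaDu EGF libraries below both controls, and the difference was -2.38 ± 0.39 (adjusted p = 0.0124). TUBB3, a beta-tubulin of neurons found in many carcinomas, was the gene called in opposite directions. It was at 25.7, 26.7, and 28.8 CPM in Kyse30 controls and 43.4, 46.6, 51.3, and 62.6 CPM with EGF, and at 5.04 and 4.35 CPM in FaDu controls and 1.59 and 1.84 CPM with EGF. Libraries did not overlap in either line, with a log2FC of 0.92 ± 0.23 in Kyse30 (adjusted p = 0.0243) and -1.45 ± 0.36 in FaDu (adjusted p = 0.0458), and the difference of -2.36 ± 0.43 (adjusted p = 0.0268) was called in 3 of 11 leave-one-out fits.

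The genes with the larger FaDu response started from lower levels in FaDu. In all 18 the FaDu controls lay below every Kyse30 control, an order whose share over all genes is not given here. By the test 17, all but PRSS22, were called lower in FaDu controls, against 17.5% of all genes tested. The median level of these genes in FaDu minus Kyse30 was -2.67 on the log2 scale in controls and -0.31 with EGF, beside -0.06 and -0.03 over all genes. Because the control libraries enter both the level and the response, a low control level and a large response are not independent measures. Fc-treated libraries, which the response did not use, gave a median of -2.51 for the 18 genes and -0.04 for all genes, with 15 of 18 called lower in FaDu against 16.6% of all genes. With EGF, 7 of the 18 were called lower in FaDu (TGFBI, HIVEP3, EREG, FGD6, CST6, CLDN1, and NEDD4L; 18.4% of all genes) and 5 higher (TAGLN, PRSS22, THBS1, and EGR1 among them; 16.9%). A level difference between lines cannot be told apart from a difference in how the libraries of each line were made, and reads that mapped to several places made up 29.2 to 38.8% in Kyse30 and 45.7 to 48.9% in FaDu.

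**Figure D3:**
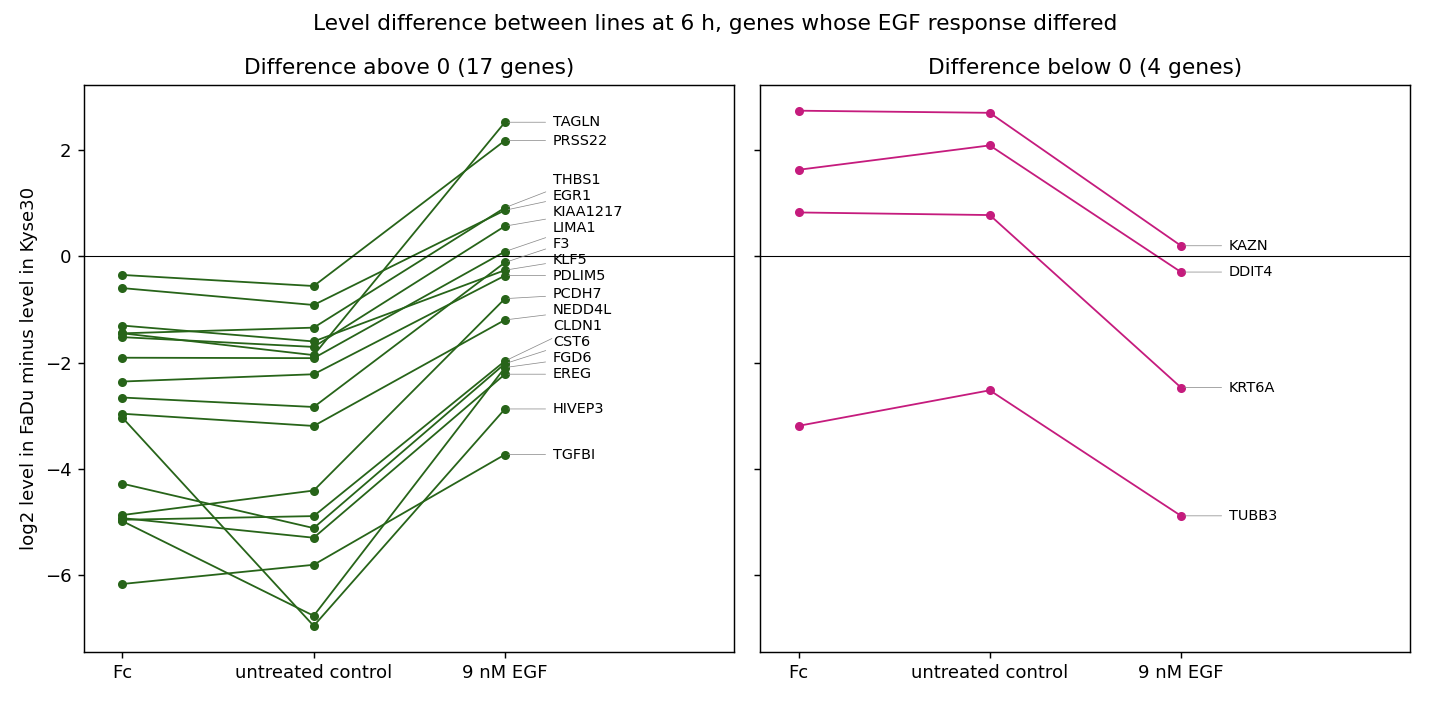
Lines join, for each gene, the log2 level in FaDu minus that in Kyse30 under Fc, in untreated controls, and with 9 nM EGF, with 17 genes of larger FaDu response on the left and the 4 of smaller response on the right. The 17 genes start below 0 under Fc and in controls and move up with EGF.

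The shared response was made up mostly of genes that rose. Of 733 Kyse30 DEGs, 654 (89.2%) had the same sign in FaDu, and of 247 FaDu DEGs, 225 (91.1%) had the same sign in Kyse30, beside 61.2% of all 14688 genes. Genes that rose in Kyse30 had a median log2FC of 1.01 there and 0.547 in FaDu, and genes that rose in FaDu 1.76 there and 0.831 in Kyse30. Each list was chosen in 1 of the lines, so that the median there is not comparable with that in the other. Over the 865 genes called in either line, the Spearman correlation of both log2FC values was 0.604, and over all genes tested 0.309, as a description across genes that share libraries within each line and are not independent replicates.

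EGFR ligand genes were part of the shared rise. HBEGF, the heparin-binding EGF-like growth factor, was at 14.1 and 20.2 CPM in FaDu controls and 121 and 183 CPM with EGF, and at 23.8, 16.4, and 20.4 CPM in Kyse30 controls and 139.7, 90.3, 99.2, and 109 CPM with EGF. No difference in level between lines was called in either condition, with a log2FC of 3.15 ± 0.30 in FaDu and 2.44 ± 0.23 in Kyse30, and a difference of 0.70 ± 0.36 (adjusted p = 0.847). Amphiregulin (AREG), another EGFR ligand, was at 27.2 and 44.7 CPM in FaDu controls and 226 and 576 CPM with EGF, and at 148, 169.6, and 319.9 CPM in Kyse30 controls and 1001, 864, 782, and 1194 CPM with EGF. It rose by 3.48 ± 0.41 and 2.18 ± 0.30, and the difference of 1.30 ± 0.47 did not pass (adjusted p = 0.621).

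ETS1, a transcription factor activated by ERK, was at 13.6 and 16.9 CPM in FaDu controls and 143 and 208 CPM with EGF, and at 9.9, 4.93, and 7.03 CPM in Kyse30 controls and 60.1, 37.1, 39.9, and 38.8 CPM with EGF. The log2FC was 3.52 in FaDu and 2.60 in Kyse30, with a difference of 0.92 ± 0.41. FOSL1, which encodes the AP-1 subunit FRA1, was at 60.2 and 108 CPM in FaDu controls and 342 and 470.1 CPM with EGF, and at 64.8, 29, and 41.2 CPM in Kyse30 controls and 218, 153, 119, and 160.1 CPM with EGF, and differed in response by 0.42 ± 0.42. The scaffold protein AKAP12 rose by 3.65 in FaDu and 2.36 in Kyse30, the activin antagonist follistatin (FST) by 2.59 and 2.12, the sialyltransferase ST3GAL1 by 2.71 and 1.95, the actin-oxidising enzyme MICAL2 by 2.30 and 2.25, and the interferon-inducible GTPase GBP1 by 3.44 and 2.03. None of these 5 differences was called, with estimates from 0.06 ± 0.52 for MICAL2 to 1.41 ± 0.83 for GBP1. GBP1 lost its Kyse30 call in 5 of the 11 leave-one-out fits, whereas AKAP12, FST, ST3GAL1, ETS1, AREG, and HBEGF were called in both lines in all 11.

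Promoters of FST and AKAP12 are shown as examples from the shared rise with a motif of the kinds above (RefSeq, GRCh38.p14, both plus strand). The FST promoter (chr5:53480379-53480678) held TGANTCA from -160, and the AKAP12 promoter (chr6:151239717-151240016) held a CArG box from -81 and CCGGAA, the core of ETS factor sites, on the opposite strand from -178, each in capitals. CCGGAA was searched on both strands and occurred in 29.9% of the promoters found for genes tested and in 17.6% of all promoters in the table. Promoters were matched for 69 of the 95 genes that rose in both lines with no difference called and for 10625 of 14688 genes tested, which is under 80%, so that the comparison of motif shares between gene groups was void.
FST: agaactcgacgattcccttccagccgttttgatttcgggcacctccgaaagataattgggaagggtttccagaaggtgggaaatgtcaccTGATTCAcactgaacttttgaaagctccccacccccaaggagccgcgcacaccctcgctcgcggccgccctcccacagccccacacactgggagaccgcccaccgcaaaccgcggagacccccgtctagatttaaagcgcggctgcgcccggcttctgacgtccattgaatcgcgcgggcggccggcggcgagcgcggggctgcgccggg
AKAP12: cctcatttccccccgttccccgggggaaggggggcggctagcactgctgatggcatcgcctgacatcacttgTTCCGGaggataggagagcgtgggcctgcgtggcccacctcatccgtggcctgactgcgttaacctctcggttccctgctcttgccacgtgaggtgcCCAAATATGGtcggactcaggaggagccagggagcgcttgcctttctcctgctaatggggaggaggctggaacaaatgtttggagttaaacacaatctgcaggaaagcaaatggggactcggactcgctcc

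Genes lowered in both lines numbered 14, and no difference was called for any of them. PIK3R3, a regulatory subunit of PI3K, was at 27.3 and 19.2 CPM in FaDu controls and 8.9 and 5.53 CPM with EGF, and at 26.9, 24.1, and 27 CPM in Kyse30 controls and 7.17, 6.16, 5.28, and 6.66 CPM with EGF. No difference in level between lines was called, and the log2FC was -1.68 ± 0.38 in FaDu and -2.04 ± 0.29 in Kyse30. CXXC5, a zinc finger protein that binds CpG-containing DNA, changed by -2.25 and -1.04, and IRF2BPL by -2.13 and -0.76, with the difference of -1.36 ± 0.30 for IRF2BPL at an adjusted p of 0.0971. The calcium channel subunit ORAI3 (-1.59 in FaDu and -1.33 in Kyse30), the cytoskeletal adaptor KANK2 (-1.61 and -1.24), the kinase CAMK2G (-1.66 and -0.99), the peptidase PGPEP1 (-1.39 and -0.88), and the zinc finger gene ZNF362 (-1.28 and -0.97) also fell in both lines. ORAI3 overlaps a gene on the same strand, AC135048.1, which had 87.3 counts on average against 146.7 for ORAI3.

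Several genes central to the question showed no difference that could be detected. EGFR itself was at 508 and 601 CPM in FaDu controls and 778 and 777 CPM with EGF, and at 1717, 1560.0, and 1451 CPM in Kyse30 controls and 2262, 2046, 2321, and 1990.0 CPM with EGF. Kyse30 held more EGFR mRNA in every library, and the log2FC was 0.49 ± 0.19 in FaDu (adjusted p = 0.323) and 0.45 ± 0.14 in Kyse30 (adjusted p = 0.0769), with a difference of 0.04 ± 0.23. EPCAM, the source of the ligand EpEX, was between 178 and 414 CPM in all 11 libraries, with log2FC 0.01 and 0.05 and a difference of -0.04 ± 0.30. Of the ERK feedback genes, SPRY4 rose by 1.94 in Kyse30 and had a log2FC of 1.88 in FaDu (adjusted p = 0.074), DUSP6 had 0.29 in Kyse30 and 0.84 in FaDu, neither passing the test, and PHLDA1, an ERK-responsive gene, rose by 1.81 in FaDu with 0.62 in Kyse30 (difference 1.20 ± 0.38, adjusted p = 0.477). Of the EMT genes, VIM was at 0.459 and 0.588 CPM in FaDu controls and 0.656 and 0.975 CPM with EGF, that is, 9 and 16 counts in all, against 91.7, 20.2, and 34.6 CPM in Kyse30 controls and 91.2, 45.2, 61.6, and 26.8 CPM with EGF. The difference was 0.42 ± 1.06 for VIM, -0.37 ± 0.64 for SNAI2, 0.66 ± 0.38 for CDH1, and 0.24 ± 0.38 for ITGB4, with adjusted p from 0.901 for CDH1 up to 1 for VIM. The standard error is wide for VIM, so that a difference in this gene was not detectable here rather than absent. LIMA1, PHLDA1, and ITGB4 each overlap another annotated gene, so that some of their reads may belong to that gene. The overlapping genes had 31.1, 11.6, and 23.5 counts on average, against 2926.2, 2694, and 5141.9 for LIMA1, PHLDA1, and ITGB4.

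Other EGFR ligand conditions gave the same genes to compare. EpEX-Fc, the extracellular domain of EpCAM fused to an immunoglobulin Fc part and a ligand of EGFR, was compared with Fc at 6 h in 10 libraries that are all different from the 11 above. The difference between lines was called for 29 of 14092 genes (0.206%), and all 22 genes had the same sign as under 9 nM EGF, beside 62.5% of all 13734 genes with both values, while 12 of the 22 were called and 19 had an unadjusted p under 0.05. The count of 29 fell to 13 without FaDu Fc replicate 3 and to 18 without Kyse30 EpEX replicate 3. CLDN1 was at 10.8 and 13.2 CPM in FaDu with Fc and 45 and 160.1 CPM with EpEX-Fc, and at 361, 319.8, and 441 CPM in Kyse30 with Fc and 245, 243, and 256 CPM with EpEX-Fc. Kyse30 libraries with EpEX-Fc were below those with Fc, the reverse of FaDu, but the Kyse30 log2FC of -0.59 ± 0.30 was not called (adjusted p = 0.503). The difference between lines was 3.69 ± 0.50 (adjusted p = 0.0016). TAGLN was at 2 and 0.929 CPM with Fc and 38.2 and 43.7 CPM with EpEX-Fc in FaDu, and at 2.51, 5.19, and 4.36 CPM and 6.16, 3.97, and 5.79 CPM in Kyse30, a difference of 4.41 ± 0.69 (adjusted p = 0.00443). F3 and PCDH7 differed by 3.54 ± 0.42 and 5.83 ± 0.84 (adjusted p = 4.77e-04 and 0.00215). FGD6 and HIVEP3, which had few counts in the untreated FaDu libraries, were not called with EpEX-Fc. The difference was 2.09 ± 0.83 for FGD6 (adjusted p = 0.696) and 1.30 ± 0.69 for HIVEP3 (adjusted p = 0.877). Of the 4 genes with the lower response in FaDu, KRT6A had -2.71 ± 0.59 (adjusted p = 0.0743), KAZN -1.91 ± 0.47, DDIT4 -0.93 ± 0.47, and TUBB3 -0.12 ± 0.63, none of them called.

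EGF at 1.8 nM was compared with the same control libraries, so its values stand beside those of 9 nM without a test of likeness. The difference between lines was called for 36 of 14695 genes (0.245%), a count that fell to 4 without FaDu 1.8 nM replicate 4, to 5 without FaDu control replicate 3, and to 20, 21, and 22 without Kyse30 1.8 nM replicate 1 and Kyse30 control replicates 1 and 3. It was 3.17 ± 0.32 for CLDN1 at 1.8 nM beside 2.92 at 9 nM, 4.52 ± 0.66 beside 4.67 for FGD6, 3.50 ± 0.71 beside 3.08 for EREG, and -3.52 ± 0.55 beside -3.25 for KRT6A. TUBB3 had -1.11 ± 0.70 beside -2.36, with an adjusted p of 0.849 at 1.8 nM. AREG, which was called in both lines at 9 nM without a difference, had 1.99 ± 0.65 at 1.8 nM and 3.63 ± 0.49 with EpEX-Fc, of which the latter passed (adjusted p = 0.0016).

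**Figure D4:**
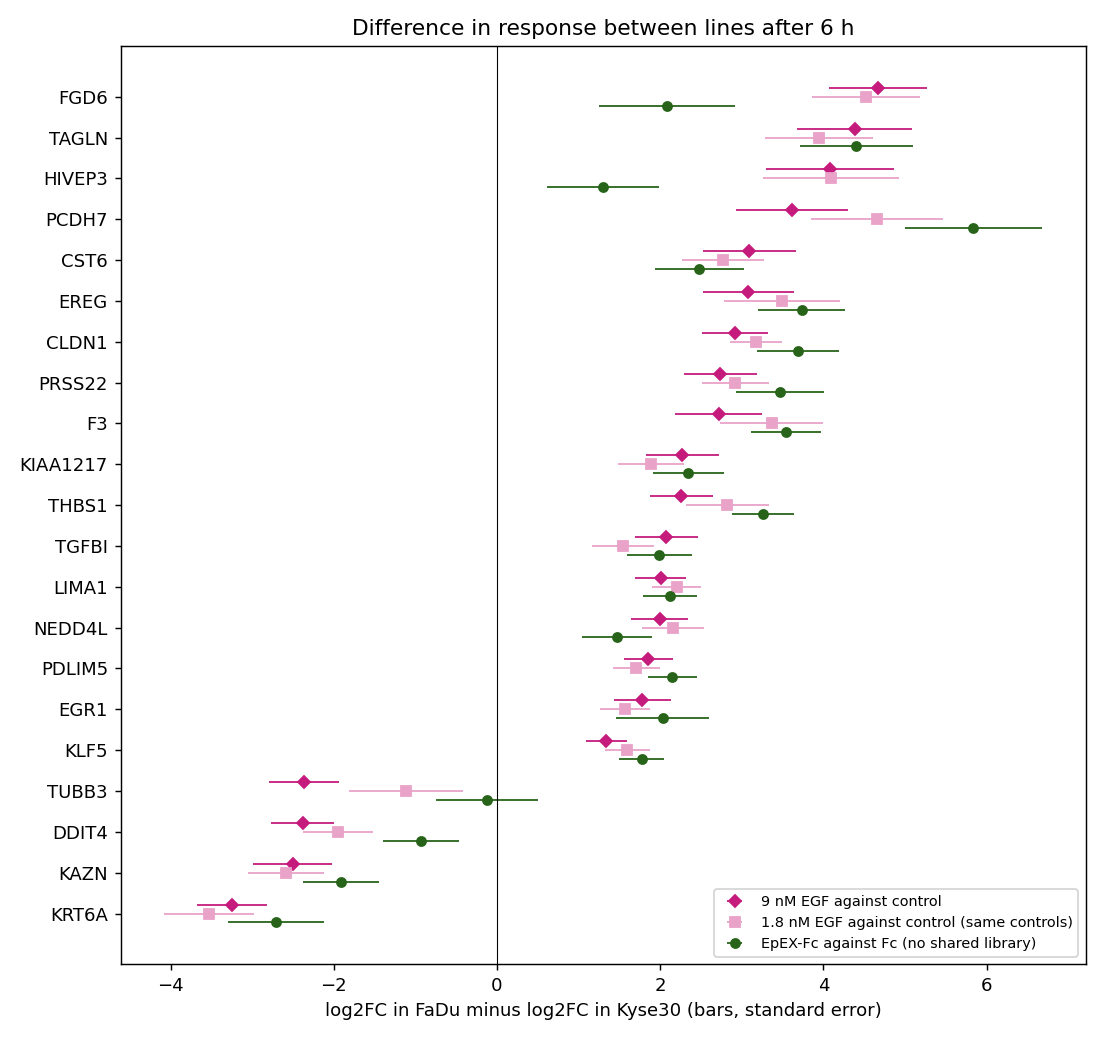
For 21 of the 22 genes the x axis gives the log2FC in FaDu minus that in Kyse30, with standard errors as bars, for 9 nM EGF, for 1.8 nM EGF (same control libraries), and for EpEX-Fc against Fc (no library shared). The sign is the same for all 21 genes with EpEX-Fc as with 9 nM EGF, and TUBB3 with EpEX-Fc is close to 0.

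Gene lists of EGFR signalling and its known targets were described by their counts beside those of all genes. Of 8 tested EGFR family ligand genes, 4 rose in FaDu (1.4% of all genes rose) and 4 in Kyse30 (3.2%), AREG, EREG, and HBEGF in both, NRG1 in FaDu (log2FC 2.37), and TGFA in Kyse30 (1.22). The median log2FC of the list was 1.69 in FaDu and 1.06 in Kyse30, beside 0.00 and -0.02 over all genes. Among 14 receptor and adaptor genes, ERBB3 fell in Kyse30 (log2FC -1.20), where 1.79% of all genes fell, and 0 passed in FaDu. Of 26 ERK feedback genes 3 rose in FaDu and 2 in Kyse30, SOCS2, an inhibitor of cytokine signalling, in both (2.54 and 2.81), and the phosphatase genes DUSP4 and DUSP5 in FaDu (1.64 and 1.53), where Kyse30 had 0.56 for each. Among 35 immediate early and AP-1 factors, 5 rose in FaDu, and 4 rose and 4 fell in Kyse30, with 2 differences called, EGR1 and KLF5. Over all genes tested 1.79% fell in Kyse30 and 0.15% had a called difference. ATF3, a stress factor of the same list, was among those that fell in Kyse30 (log2FC -1.78), with -0.02 in FaDu.

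Adhesion and protease lists contained genes that rose in both lines. Over all genes tested, 1.4% rose in FaDu, 3.2% in Kyse30, and 0.681% in both, and 0.15% had a called difference. ITGA2, ITGB1, and CD44, which encode integrin subunits and a hyaluronan receptor, rose in both lines with log2FC 2.46, 0.94, and 1.52 in FaDu and 1.10, 0.81, and 0.64 in Kyse30. Of 27 genes of the urokinase system, metalloproteinases, and inhibitors, 5 rose in each line, 3 of them in both, and F3 was the one with a called difference. PLAUR, the urokinase receptor, had a log2FC of 3.48 in FaDu, where it was called, and 1.67 in Kyse30, where it was not. Of 93 tested genes of the partial EMT signature, 15 rose in FaDu and 10 in Kyse30, 9 in both, and 4 had a called difference, F3, THBS1, TAGLN, and TGFBI. The median log2FC of this signature was 0.229 in FaDu and 0.195 in Kyse30. The EMT hallmark list had 18 risen genes in each line among 151 tested and 3 called differences. The EGFR-mediated EMT signature had 2 risen in FaDu and 3 risen and 5 fallen in Kyse30 among 171. The shares that rose were below those of all genes. The study took this signature from genes of this series that changed with the high EGF dose at 72 h and not under its other conditions. That choice removes genes changed at 6 h, so nothing is read from these counts.

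Ribosome biogenesis, ATF4 target, and mitosis genes passed the test mainly in Kyse30, without a called difference for most. Of 106 ribosome biogenesis genes, 37 rose in Kyse30 (3.2% of all genes rose) and 1 in FaDu (1.4%). The gene called in FaDu was the helicase gene DDX21, which rose in both (1.33 in Kyse30 and 0.91 in FaDu). RRP9 had a log2FC of 1.39 in Kyse30 and 0.07 in FaDu, and WDR3 1.21 and 0.12, both of them genes of small subunit processing. The list median was 0.595 in Kyse30 and 0.318 in FaDu, 21 of 106 differences were above 0 beside 7515 of 14688 over all genes, and 0 differences were called. Of 31 ATF4 targets 11 rose in Kyse30 and 0 in FaDu, among them CHAC1, which degrades glutathione (3.15 against 0.78), the cystine transporter SLC7A11 (1.20 against 0.10), and MTHFD2, a mitochondrial folate enzyme (1.55 against 0.60), and DDIT4 had the 1 called difference. Of 43 mitosis genes 18 fell in Kyse30 (1.79% of all genes fell) and 0 in FaDu (0.286%), with medians of -0.67 and -0.41. Mitotic kinesin KIF20A had -1.50 in Kyse30 and -1.24 in FaDu, and MKI67, a marker of cycling cells, -0.76 and -0.38, so that a value of the same sign missed the threshold in FaDu.

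Inflammatory, keratin, and hypoxia genes completed the lists with more than a few calls. Over all genes tested, 1.4% rose in FaDu and 3.2% in Kyse30. Of 27 tested inflammatory and NF-kB genes, 6 rose in FaDu and 5 in Kyse30, and TNFAIP3, RELB, and NFKB2, all of them targets and parts of the NF-kB pathway, rose in both (4.61, 3.02, and 1.77 in FaDu, and 2.18, 1.74, and 1.11 in Kyse30). IL11, a cytokine of the IL-6 family, was called in FaDu with a log2FC of 4.56 beside 0.29 in Kyse30, without a called difference. Of 46 keratin, cornified envelope, and S100 genes, 8 rose in Kyse30 and 3 in FaDu, KRT8, KRT17, and KRT18 in both, while SPRR2A, a cornified envelope precursor, had 3.24 in Kyse30 and -0.18 in FaDu, and KRT6A had the 1 called difference. ANGPTL4, a secreted lipase inhibitor of the hypoxia list, rose in both lines (3.93 in Kyse30 and 4.30 in FaDu), and VEGFA rose in Kyse30 (1.54) with 0.27 in FaDu. SOX2, a squamous lineage factor, fell in both lines (-2.96 in FaDu and -2.15 in Kyse30). No gene of the DNA replication list passed in either line (42 tested). For lists of cholesterol synthesis, NRF2 targets, interferon-stimulated genes, and NOTCH and WNT genes at most 3 genes passed in a line in each direction, with no difference called. Over all genes tested 1.68% passed in FaDu and 4.99% in Kyse30, so such low counts are not read as a result about these lists.

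**Figure D5:**
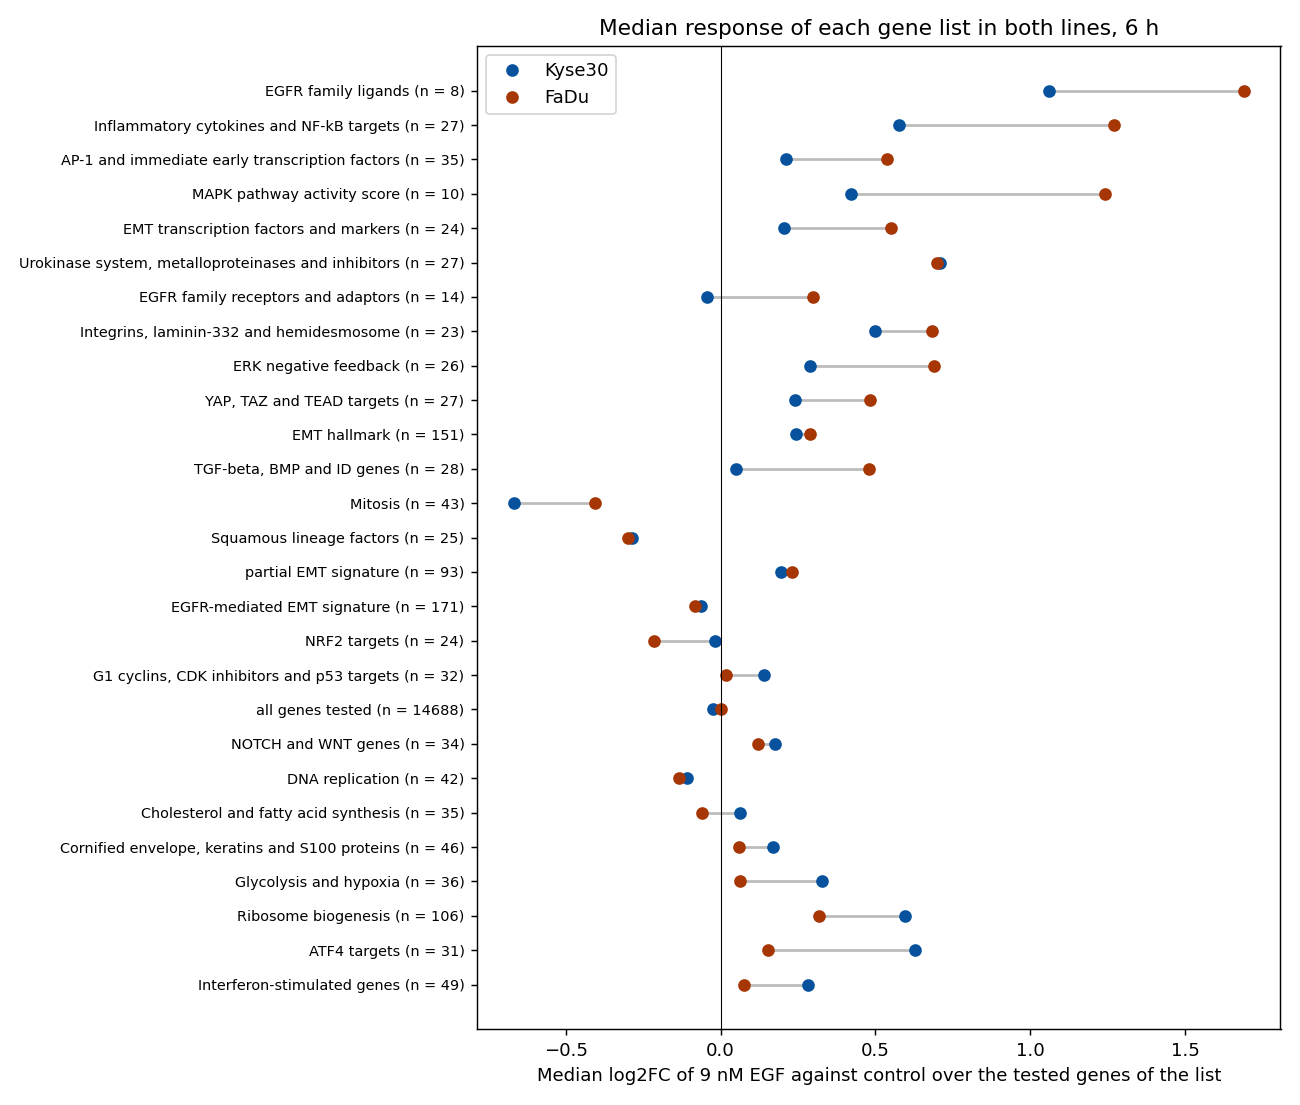
Points give the median log2FC of 9 nM EGF against control over the tested genes of each list, in Kyse30 and in FaDu, joined by a grey line and ordered by the median difference. EGFR family ligands (1.69 in FaDu and 1.06 in Kyse30) are at the top, ATF4 targets (0.15 and 0.63) and interferon-stimulated genes at the bottom, and all genes tested lie close to 0.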

How the data were processed

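QuantSeq 3′ FWD libraries were counted by the authors with HTSeq after alignment with STAR to GRCh38 (hg38), per the submitters' processing notes; the deposited files hold raw counts per gene. Annotation, strand setting, and use of molecular identifiers are not given in the sources used here. Rows not naming a gene were left out. Groups followed the labels, and FaDu replicates 3 and 4 were used. Members, gene lists, and naming rule were chosen with earlier results of these data known.

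Counts of 11 libraries were filtered with filterByExpr (minimum count 10, total 15), TMM-normalised, and fitted together with edgeR 4.0.16 (R 4.3.3) by the quasi-likelihood test. The fit had 1 mean per group, the default prior count of edgeR for log2FC, and Benjamini-Hochberg adjustment over all genes tested. Standard errors were derived from the test, as the absolute log2FC over the square root of its F value, and are unreliable for genes with almost no counts. The 1.8 nM EGF and EpEX-Fc comparisons were fitted in the same way. The call rule (0.05 for adjusted p, 0.5 for log2FC) was the same throughout. The script was tested on counts simulated for these 11 libraries with known differences between lines. Of differences of size 1 and 2 on the log2 scale, edgeR recovered 4% and 31%, with 1 false call among 14147 genes. DESeq2 recovered 16% and 36%, with 15 false calls. Most differences of these sizes were thus missed, and a difference not called is not shown to be absent. Correlations across genes are descriptions.

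Named genes were the 10 highest and 10 lowest called differences with a mean of at least 5 CPM in a group, the 8 strongest shared genes in each direction with at least 5 CPM in all 4 groups, genes called in opposite directions, up to 4 called members of each list, and 11 genes of EGFR signalling and EMT named whatever their result; XIST and Y-linked genes were not named. A few genes that the rule or the lists named are not reported here. Promoters were from RefSeq (GRCh38.p14), matched by symbol for 35 of 49 named genes, and gene positions from GENCODE 29. Alternatives were DESeq2 1.42.0, other normalisation and filters, other sets of libraries, a replicate block, and leaving out each library in turn.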

Additional observations from a re-analysis of the deposited data

Results flagged for a closer look

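The interaction of line and EGF, tested by edgeR over all 14688 genes, marked 22 genes for a closer look because the response differed between lines, 21 of which are given here. The log2FC in FaDu minus that in Kyse30 was 4.67 for FGD6, 4.38 for TAGLN, 4.08 for HIVEP3, 3.61 for PCDH7, 3.09 for CST6, 3.08 for EREG, 2.92 for CLDN1, 2.74 for PRSS22, and 2.72 for F3. It was 2.27 for KIAA1217, 2.26 for THBS1, 2.07 for TGFBI, 2.01 for LIMA1, 1.996 for NEDD4L, 1.86 for PDLIM5, 1.78 for EGR1, and 1.34 for KLF5. The response was lower in FaDu for KRT6A (-3.25), KAZN (-2.50), DDIT4 (-2.38), and TUBB3 (-2.36).

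Among the 4 Kyse30 libraries with 9 nM EGF, 1 library stood far from the others in each of 3 genes: KRT6A at 214.1 CPM in replicate 4, KAZN at 27.32 CPM in replicate 1, and ETS1 at 60.11 CPM in replicate 1. Chance alone marks about 1 in 20 groups in this way. Without replicate 4 the difference for KRT6A was -2.94 and was called, and without replicate 1 that for KAZN was -2.63 and was called.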

How the results depend on the processing

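The FaDu response rests on 2 against 2 libraries, with a median standard error of 0.426 against 0.338 in Kyse30. Depth was not varied, and levels under 3 counts (0.27 to 1.08 CPM) were not told apart from 0. The 22 differences were also 22 with RLE size factors and 16 with a minimum mean of 5 CPM. DESeq2 called 74 differences (50 higher and 24 lower in FaDu), with 387 genes in FaDu, 1139 in Kyse30, 185 shared, and 2 opposite. Without a filter on low counts, 104 differences (76 and 28), 396 FaDu genes, 177 shared, and 3 opposite were called. With all Kyse30 and FaDu replicate 3 and 4 libraries of the series in the fit, the counts were 12 differences, 161 in FaDu, 434 in Kyse30, 57 shared, and 0 opposite. Untreated and Fc libraries pooled as control gave 76 differences (49 and 27), 443 FaDu, 1515 Kyse30, 239 shared, and 3 opposite genes. All 4 FaDu replicates gave 0 for all 5 counts, with 829 differences at an unadjusted p under 0.05, and FaDu replicates 1 and 2 in place of 3 and 4 gave 708 differences, 1165 FaDu, 5 Kyse30, 0 shared, and 2 opposite genes. Leaving out each library gave 4 to 33 differences, 69 to 270 FaDu, 296 to 732 Kyse30, 46 to 117 shared, and 0 to 1 opposite genes. Of the 22 genes, 21 were called by DESeq2, 22 without the filter, 11 in the fit of all libraries, and 21 with untreated and Fc libraries as control, and the sign of all 22 was kept in each of these.

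The labels number the replicates alike across groups. Deviations of same-numbered EGF and control libraries correlated at 0.173, 0.0377, and 0.211 in Kyse30 and at 0.0166 in FaDu, so that the numbers were not taken to pair the samples. With the replicate block, 63 differences (46 and 17) were called, with 174 shared and 2 opposite genes, and 22 of the 22 genes were among the 63. At 1.8 nM the block gave 123 differences and for EpEX-Fc 84. DESeq2 gave 105 at 1.8 nM and 85 for EpEX-Fc, the fit of all libraries 22 at 1.8 nM, and leaving out each library 4 to 34 at 1.8 nM and 13 to 40 for EpEX-Fc.

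With all 4 FaDu replicates the difference in log2FC changed sign for FGD6 (-0.21), HIVEP3 (-0.99), PCDH7 (-0.64), CST6 (-1.97), EREG (-0.35), CLDN1 (-0.47), F3 (-0.20), TUBB3 (0.45), KLF5 (-0.41), TGFBI (-1.31), EGFR (-1.40), and FOSL1 (-0.13), as did the FaDu log2FC of TUBB3 (1.36) and PIK3R3 (0.23). With untreated and Fc libraries as control, VIM turned to -0.67 and SNAI2 to 0.20. Leaving out single libraries changed the sign only for genes with no called difference, over ranges of -0.23 to 0.10 for EPCAM, -0.40 to 0.16 for SPRY4, -0.0791 to 0.165 for EGFR, -0.40 to 0.79 for VIM, -1.19 to 0.15 for SNAI2, -0.0819 to 0.996 for DUSP6, and -0.085 to 0.67 for ITGB4. The cause of these changes was not tested.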
